A study of Mus musculus with 9 samples.

Results

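The 3 samples described here are MLE-12 cells kept in regular medium, which make up 3 of the 9 samples of the study. They were chosen by their treatment label (control), and no measured value entered the choice. MLE-12 is a mouse lung epithelial line raised from lung tumours of SP-C/TAg transgenic mice. In such mice the simian virus 40 large T antigen is placed under a promoter of the surfactant protein C gene, which marks type 2 cells of the alveolus. Large T antigen is known to bind the retinoblastoma and p53 proteins, and this limits the line as a model of a resting alveolar cell. The other samples of the study received extracellular vesicles from lavage fluid of mice with bleomycin lung injury, and they enter nowhere below. All 3 control samples carry the same labels: passage 17, growth in DMEM with 10% serum and antibiotics, total RNA from Trizol, and a stranded mRNA library. Whether they were separate cultures was not stated, so the spread between them may be technical.

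The lung alveolus is lined by type 1 cells, which are thin and form the surface for gas exchange, and by type 2 cells, which make and secrete surfactant and can give rise to type 1 cells. During injury and repair a transitional state rich in the keratin Krt8 lies between both. Epithelial cells are in general recognised by keratin filaments and by cell contacts built on E-cadherin, claudins and desmosomes, whereas vimentin and N-cadherin are filament and contact proteins typical of mesenchymal cells.

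Levels are given as RPKM, read numbers scaled to the length of the gene and to the depth of the library, so that genes can be set beside each other. Library totals recovered from the values were 29915060, 33558660 and 25024077 reads in control libraries 1, 2 and 3. The deposited table held 21950 genes, of which 10805 (49.2%) had a mean of at least 1 RPKM, called detected below. A mean of at least 100 RPKM was reached by 498 genes (2.27%), and 5105 genes (23.3%) were listed at 0 in all 3 libraries. The median over all genes was 0.843 RPKM. The share of a list that was detected is to be read beside the 49.2% of all genes. Because there was 1 group, no test was made. Errors after ± are SDs over the 3 libraries, and the order of genes is described by whether the ranges of their 3 values overlap. Where a gene was listed at 0, the limit given is the RPKM that 3 reads over the 3 libraries together would amount to for its annotated exonic length, and it covers counting error only. The length behind the deposited values may be shorter, and the limit would then be higher.

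**Figure D1:**
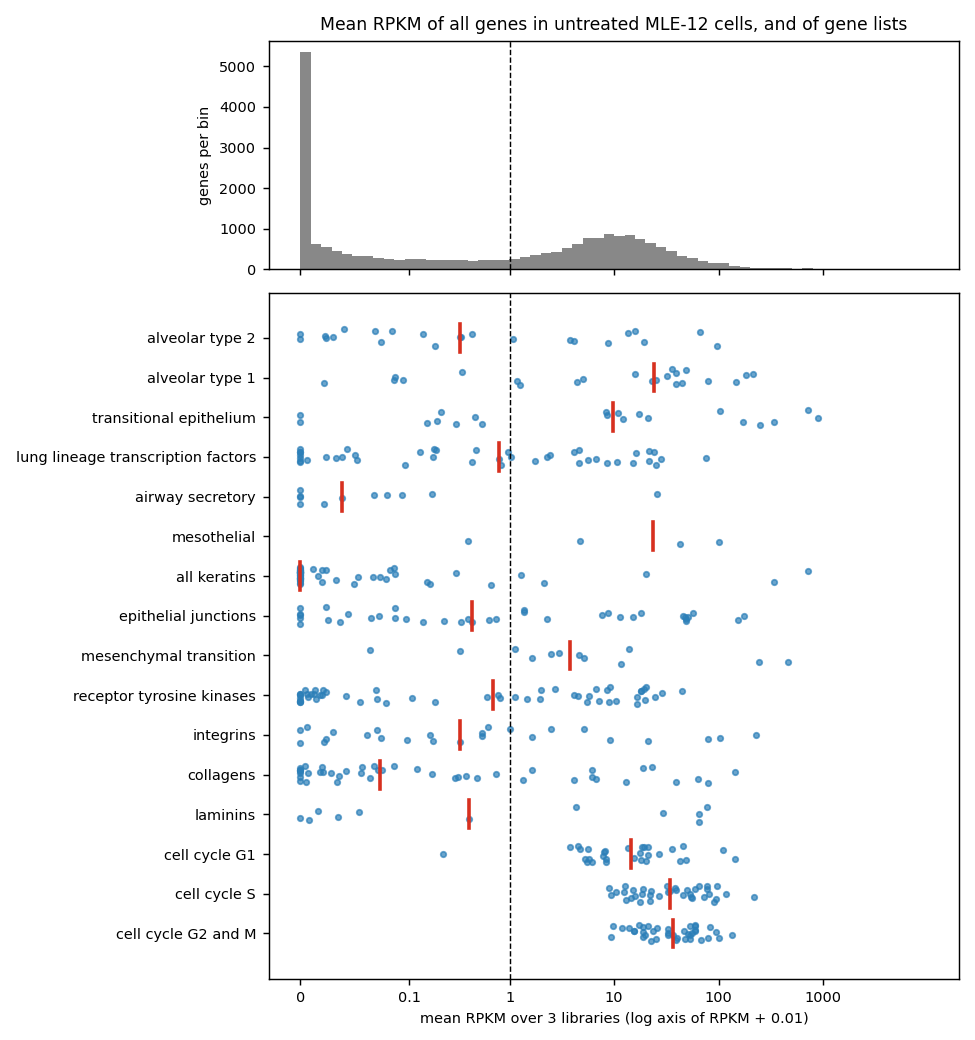
Mean RPKM over the 3 control libraries on a log axis (0.01 added), for all 21950 genes as a histogram (top, genes per bin) and for 16 gene lists with 1 point per gene (bottom). The red bar is the list median and the dashed line is 1 RPKM. The S phase and G2/M genes lie wholly to the right of the line, the keratins pile up at 0, and the alveolar lists spread over the whole axis.

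The 4 marker genes, chosen for the line with earlier results of these data known, were at very unequal levels. That all 4 were detected is therefore not a result by itself. Krt19 (chr11:100140810-100148665, GRCm38), a keratin of simple epithelia, was at 709.9, 694 and 731 RPKM in libraries 1, 2 and 3. Krt8 (chr15:101996698-102004482), the type II keratin of simple and transitional epithelia, was at 335, 333 and 342 RPKM. Aqp5 (chr15:99590782-99594829), a water channel of alveolar type 1 cells, was at 208, 216 and 210.2 RPKM. These levels placed Krt19 at rank 53, Krt8 at rank 131 and Aqp5 at rank 214 of all genes. Sftpb (chr6:72304610-72314371), which encodes surfactant protein B, was at 13.2, 12.3 and 15.3 RPKM, rank 4390. The ranges of the 4 genes did not overlap, and Aqp5 exceeded Sftpb 15.7 ± 1.96-fold (mean ratio within a library, n = 3). Of the 50-base sequences of Krt8, 29.7% also occur in another annotated gene, so part of its reads may have been split or shared.

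The surfactant genes, which give the type 2 cell its identity, were unequal as well. Sftpc (chr14:70520949-70524081), the mouse surfactant protein C gene, was at 8.36, 9.23 and 8.60 RPKM, below Sftpb in every library. Sftpa1 (chr14:41131782-41136452), a collectin of the airspace, was at 0.0701, 0.0834 and 0.0419 RPKM, which came from 6, 8 and 3 reads. Sftpd (chr14:41172214-41185149), the second collectin, was listed at 0 in all 3 libraries, a limit of 0.0140 RPKM. The genes of the hydrophobic surfactant proteins B and C were thus detected, and those of both collectins lay under 1 RPKM.

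Among the 23 type 2 genes in the table, 9 (39.1%, against 49.2% of all genes) were detected, and the list median was 0.323 RPKM, against 0.843 over all genes. The highest were Scd1, a desaturase of fatty acids, at 95.7 ± 3.47 RPKM, and Ctsh, a protease that processes surfactant proteins, at 66.4 ± 1.18. Lpcat1, which remodels the phosphatidylcholine of surfactant, was at 19.1 ± 0.543 RPKM and Abca3, the lipid pump of lamellar bodies, at 15.95 ± 0.263. Dram1 (4.13 ± 0.323), the chemokine Cxcl15 (3.78 ± 0.0636) and Cd74 (1.08 ± 0.199) completed the detected members. Neighbours in this order did not overlap in their 3 values.

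The other 14 type 2 genes lay under 1 RPKM. Napsa, the aspartic protease that matures surfactant protein B, was at 0.403, 0.290 and 0.278 RPKM, from 26, 21 and 15 reads. Slc34a2, the phosphate carrier of type 2 cells, was at 0.0425 ± 0.00440 RPKM, and Lamp3, a protein of the lamellar body membrane, gave 2, 0 and 1 reads. The lysozyme Lyz2 was at 0.332 RPKM, Bex2 at 0.428, the alarmin Il33 at 0.183 and the mucin Muc1 at 0.141. Complement C5 (Hc, 0.0489), Fabp5 (0.0164), Lyz1 (0.00786) and Pgc (0.00716) rested on a few reads each, and the chitinase-like gene Chil1 was listed at 0, a limit of 0.0121 RPKM.

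Type 1 genes were detected more often: 17 of 22 (77.3%, against 49.2% of all genes), with a median of 23.9 RPKM. The list was chosen with earlier results of these data known, so this share is no measure of type 1 character. Below Aqp5 came Cav1, the coat protein of caveolae, at 181, 183 and 178 RPKM, and Emp2, a tetraspan membrane protein, at 146, 147 and 149.6 RPKM. Gprc5a, an orphan receptor of lung epithelium, was at 78.3 ± 0.389 RPKM, and Pdpn, the mucin-type surface protein also called T1-alpha, at 40.0, 38.6 and 39.5 RPKM. Cav2 (49.1), the actin-binding Lmo7 (44.4), the basement membrane chains Col4a4 (39.2) and Col4a3 (22.8), the chloride channel protein Clic5 (35.99), the protease inhibitor Timp3 (31.9) and the growth factor Vegfa (15.9) filled the middle of the list.

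Hopx (chr5:77086988-77115121), a homeodomain protein of type 1 cells, was at 23.6, 24.6 and 26.6 RPKM. Of its exonic bases, 27.2% are overlapped by a gene on the opposite strand. Ager (chr17:34597862-34600936), the receptor called RAGE and among the most used type 1 markers, was at 5.20, 5.45 and 4.5 RPKM, rank 7902. Ager was thus far below Aqp5 and Pdpn in each library. Sema3e was at 4.44 RPKM, Rtkn2 at 1.26 and Limch1 at 1.18. Under 1 RPKM lay Akap5 (0.345), Spock2 (0.0852), Igfbp2 (0.0685), the sodium channel subunit Scnn1g (0.00705, 2 reads in all) and the claudin of alveolar tight junctions, Cldn18 (0.0825, 0.0736 and 0.0538 RPKM).

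Of 20 genes of the transitional state, 12 (60.0%, against 49.2% of all genes) were detected, with a median of 9.67 RPKM. The choice of this list was likewise made with earlier results of these data known. S100a6, a calcium-binding protein, was the highest at 898, 848 and 916 RPKM, above Krt19 in each library. Anxa1, a phospholipid-binding protein, was at 246 ± 1.62 RPKM, the tetraspan protein Tm4sf1 at 171 ± 7.2 and the galectin Lgals3 at 104 ± 2.19. Next came the cell cycle inhibitor Cdkn1a (21.0), the EGF receptor ligand Hbegf (17.3), Tnip3 (12.1), the urokinase receptor Plaur (10.9) and the stress genes Nupr1 (8.47) and Ndrg1 (8.30). The members under 1 RPKM were the integrin chain Itgb6 (0.542), Sfn (0.456), Krt18 (0.297), Gdf15 (0.212), Areg (0.191) and Krt7 (0.153). Cldn4 and Ereg were listed at 0, limits of 0.0187 and 0.00821 RPKM. Krt8, Krt19, Lgals3 and Tm4sf1 were thus high while Krt18, Krt7, Cldn4 and Sfn, which are named as markers of the same state, were under 1 RPKM.

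**Figure D2:**
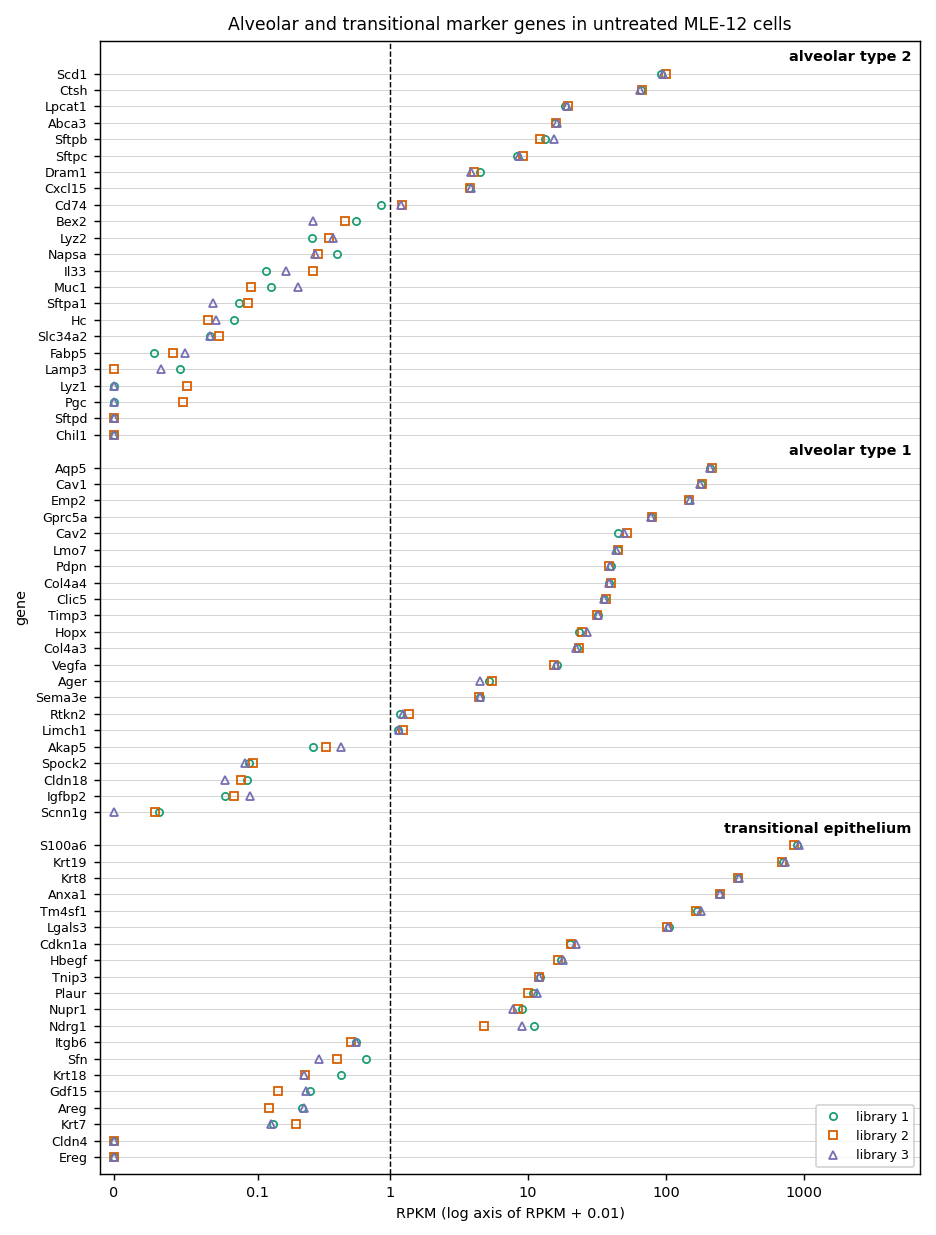
RPKM in each of the 3 control libraries (log axis with 0.01 added, 1 symbol per library) for all type 2, type 1 and transitional genes of the lists, ordered by their mean. The dashed line is 1 RPKM. Most type 2 genes lie left of the line and most type 1 genes right of it, and the 3 symbols of a gene lie close together except at low levels and for Ndrg1.

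The transcription factors of the lung lineage were in part detected: 19 of 43 (44.2%, against 49.2% of all genes), with a median of 0.792 RPKM. Nkx2-1 (chr12:56531958-56536908), which defines the lung epithelium in the foregut, was at 24.8, 24.7 and 22.4 RPKM. Its partner Foxa2 was at 22.3, 21.9 and 20.4 RPKM, with a ratio of Nkx2-1 to Foxa2 of 1.11 ± 0.0127. Gata6, another foregut factor, was at 28.6, 29.2 and 27.1 RPKM. The ranges of Nkx2-1 and Tfcp2l1 (21.6) overlapped, as did those of Tfcp2l1 and Foxa2, whereas Gata6 lay above them.

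Klf4, a factor of epithelial differentiation, was the highest of the list at 75.5, 76.8 and 72.5 RPKM. Etv5 (16.1), which acts downstream of FGF signals in type 2 cells, Cebpb (15.2), Foxp4 (10.6), Foxa1 (8.63), Foxp1 (6.73), Grhl3 (5.67), Id2 (4.64), Etv4 (4.57) and Irx5 (4.12) followed. Irx2 (2.41), Trp63 (2.27), Klf5 (1.75) and Sox9 (1.02) were the lowest detected. Cebpa, a factor of type 2 maturation, was just under the threshold at 0.977, 0.928 and 0.956 RPKM, and Foxp2 (0.824) and Grhl1 (0.792) lay close to it.

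Of the 10 general epithelial regulators in this list, 3 (30.0%) were detected, and these were Klf4, Klf5 and Grhl3. Grhl2 (chr15:37233036-37363569), which drives E-cadherin and claudin genes, was at 0.0304, 0.0216 and 0.0218 RPKM, from 5, 4 and 3 reads. Elf3 (0.178), Ehf (0.0233), Ovol2 (0.0121), Ovol1 (0.00768) and Elf5 (0.00169) were likewise under 1 RPKM. Sox2, the factor of the conducting airway, was listed at 0, a limit of 0.0165 RPKM, as were Sox17, Irx1, Foxi1, Cdx2 and Pax8. Foxj1 (0.191), Pou2f3 (0.432), Irx3 (0.471), Hnf4a (0.177), Mycn (0.130), Foxa3 (0.0914) and Spdef (0.0152) were also under 1 RPKM.

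Markers of airway cells were nearly all under 1 RPKM. Over the lists of secretory, ciliated, basal and rare airway cells 3 of 34 genes (8.82%) were detected, and 12 were listed at 0. These 3 were the mucin Muc5b at 26.4, 25.2 and 25.6 RPKM, the kinase Dclk1 at 4.80 ± 0.101 RPKM and the basal factor Trp63 at 2.27 ± 0.0439 RPKM. The club cell secretoglobin Scgb1a1 gave 0, 4 and 0 reads, and Scgb3a2, Agr2, Bpifa1, Bpifb1 and the basal keratin Krt5 were listed at 0. The ciliated genes Dnah5, Ccdc153 and Mcidas were also at 0. Muc5b thus stood apart from the other 10 secretory genes, the highest of which was Muc5ac at 0.171 RPKM.

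Markers of blood and vessel cells were read in the same way, and 1 of 30 (3.33%) was detected. This was Csf1r, the receptor of macrophage colony-stimulating factor, at 1.47 ± 0.0270 RPKM. The macrophage genes Adgre1, Marco, Siglecf and Itgax, the lymphocyte gene Nkg7, and the neutrophil genes S100a8, S100a9, Ly6g and Retnlg were at 0. The leukocyte gene Ptprc gave 0, 3 and 0 reads. Summed levels lay between 2.49 and 2.59 RPKM for the macrophage list, between 1.04 and 1.30 for the endothelial list, between 0.448 and 0.532 for pericytes and smooth muscle, and between 0.536 and 1.84 for erythroid genes.

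Genes listed as fibroblast and mesothelial markers included some at high levels. Of 7 fibroblast genes 3 (42.9%, against 49.2% of all genes) were detected, with a median of 0.0412 RPKM. The summed level of the list lay between 272 and 281 RPKM and came almost wholly from Dcn and Col1a1. Dcn, which encodes the proteoglycan decorin, was at 194, 200.4 and 192 RPKM, and Pdgfra was at 1.12 ± 0.0305 RPKM. The fibroblast genes Col3a1, Lum and Tcf21 were listed at 0. Of 4 mesothelial genes 3 (75%, against 49.2% of all genes) were detected, with a sum between 145 and 152 RPKM. Upk3b was at 96.6, 99.2 and 104 RPKM, and Msln, which encodes mesothelin, at 42.7, 42.7 and 43.2. Wt1 was at 5.06, 4.62 and 4.5 RPKM, while Lrrn4 was at 0.395. In RNA from a whole culture, fewer cells of a type and less RNA per cell cannot be told apart, and the part of other cell types in these levels was not tested.

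Keratin filaments are assembled from a type I and a type II chain, and the usual type I partner of Krt8 in simple epithelia is Krt18. A total of 5 of 52 keratin genes (9.62%) were detected, and 29 were listed at 0. Beside Krt19 and Krt8 these were Krt80 at 19.5, 20.4 and 20.1 RPKM, Krt13 at 2.15 ± 0.220 and Krt10 at 1.28 ± 0.147. Krt18 (chr15:102028180-102032027) was at 0.430, 0.234 and 0.228 RPKM, from 18, 11 and 8 reads. Krt8 therefore exceeded Krt18 by 780-fold, 1422-fold and 1496-fold in the 3 libraries, whereas Krt19 exceeded Krt8 2.11 ± 0.0259-fold. Krt8 and Krt18 lie close to each other on chromosome 15, and 0.719% of the Krt18 50-base sequences occur in another annotated gene.

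The level of Krt7, the other simple type II keratin, was 0.153 ± 0.0403 RPKM. Krt20 (0.0479) and Krt23 (0.165), simple type I keratins, were also under 1 RPKM. Of the keratins of stratified epithelia and hair, Krt14 was at 0.532, 0.576 and 0.841 RPKM, and among those at 0 were Krt1, Krt4, Krt5, Krt6a and Krt17. Vimentin (Vim), the filament protein of mesenchymal cells, was at 459.7, 446 and 462 RPKM, 1.36 ± 0.0157 times Krt8. Nestin (Nes, 32.7) and synemin (Synm, 22.6) and the lamins Lmnb1 (75.3), Lmna (67.2) and Lmnb2 (15.8) were the other detected filament genes, 6 of 13 with Vim. Desmin (Des, 0.0962), Gfap (0.0933) and the neurofilament genes were under 1 RPKM.

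Cell contacts were uneven. Of 37 junction genes 16 (43.2%, against 49.2% of all genes) were detected, with a median of 0.427 RPKM. The cytoplasmic linkers were high: Ctnnb1, which encodes beta-catenin, was at 168, 175 and 176 RPKM, and Ctnna1, alpha-catenin, was at 156, 151 and 149 RPKM. The transmembrane protein F11r (57.0) and the linkers Tjp1 (51.1), Ctnnd1 (48.8), Ppl (48.3) and Jup (45.8) followed. E-cadherin and most claudins were low or at 0. Cdh1 (chr8:106603351-106670246), E-cadherin, was at 1.40, 1.39 and 1.34 RPKM, rank 10440. Epcam (chr17:87635979-87651129), the epithelial adhesion molecule widely used to sort lung epithelium, was listed at 0 in all 3 libraries, a limit of 0.0154 RPKM.

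The label of the line, a lung epithelial cell, thus met some defining epithelial markers at high levels and others at or near 0. Cldn3, Cldn4, Cldn8 and the desmosomal cadherin Dsg2 were at 0, and Cldn7, a common epithelial claudin, gave 0, 0 and 2 reads. Occludin (Ocln) was at 0.390 RPKM and Cldn1 at 0.0380. Of the 21 tight junction genes 5 were detected, and Cldn12, at 17.9 ± 0.262 RPKM, was the claudin among them. The desmosomal plaque genes Dsp (15.2), Evpl (11.3) and Pkp2 (8.69) were detected.

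Of 12 genes of mesenchymal transition 10 (83.3%, against 49.2% of all genes) were detected, with a median of 3.81 RPKM. This list too was chosen with earlier results of these data known, so the share is no measure of mesenchymal character. N-cadherin (Cdh2) was at 12, 11.7 and 11.2 RPKM, 8.47 ± 0.0879 times Cdh1. Fibronectin (Fn1) was at 13.9 ± 0.210 RPKM, and S100a4 was at 254, 227 and 246 RPKM, although 47.4% of its 50-base sequences occur in another annotated gene. The transcription factors of the transition were low: Prrx1 was at 5.10 RPKM, Twist2 at 4.64, Zeb1 at 2.98, Snai1 at 2.48 and Zeb2 at 1.64. Snai2 (0.330) and Twist1 (0.0364) were under 1 RPKM, and 46.5% of Twist2 is overlapped on the opposite strand.

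**Figure D3:**
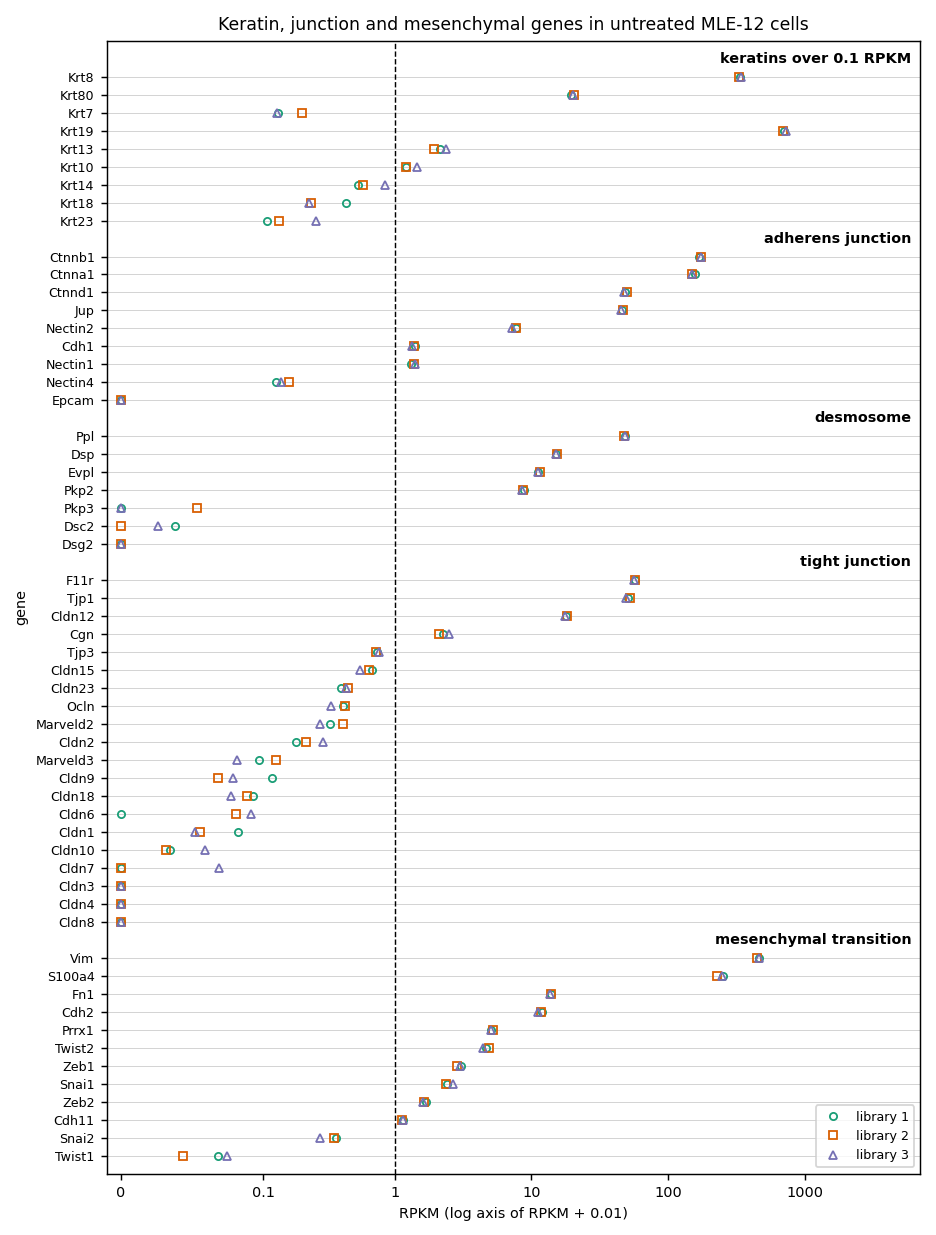
RPKM in each control library (log axis with 0.01 added) for keratins with a mean over 0.1 RPKM, and for adhesion, desmosome, tight junction and mesenchymal transition genes of the lists that are reported here. The dashed line is 1 RPKM. Krt19, Krt8, Vim and the catenins lie far to the right, Krt18, Krt7 and most claudins left of the line, and Epcam, Dsg2, Cldn3, Cldn4 and Cldn8 at 0.

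The 250 bases upstream of the RefSeq start (GRCm38.p6) are shown for 4 genes at different points of the scale: the paired keratins Krt8 and Krt18, Epcam at 0, and the surfactant gene Sftpb. Capitals mark every match, on either strand, to TATAAA (a motif of core promoters), to GGGCGG (the core of a GC box), to TGACTCA (an AP-1 site) or to CACCTG (an E-box bound by Snail and Zeb factors). For Krt8 and Krt18 the RefSeq start lies inside the gene span given above, so part of each window is within the annotated gene. The CACCTG of the Krt8 window is in that part.
Krt8, chr15:102004343-102004592, minus strand: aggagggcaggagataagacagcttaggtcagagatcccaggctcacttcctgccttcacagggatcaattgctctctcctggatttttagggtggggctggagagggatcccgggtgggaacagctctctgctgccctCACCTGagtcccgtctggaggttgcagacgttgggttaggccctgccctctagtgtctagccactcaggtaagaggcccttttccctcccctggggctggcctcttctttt
Krt18, chr15:102027966-102028215, plus strand: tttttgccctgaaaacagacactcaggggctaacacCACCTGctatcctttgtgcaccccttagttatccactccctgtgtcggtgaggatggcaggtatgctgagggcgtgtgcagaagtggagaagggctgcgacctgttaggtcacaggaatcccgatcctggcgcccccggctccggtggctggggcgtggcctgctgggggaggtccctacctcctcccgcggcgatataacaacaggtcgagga
Epcam, chr17:87635729-87635978, plus strand: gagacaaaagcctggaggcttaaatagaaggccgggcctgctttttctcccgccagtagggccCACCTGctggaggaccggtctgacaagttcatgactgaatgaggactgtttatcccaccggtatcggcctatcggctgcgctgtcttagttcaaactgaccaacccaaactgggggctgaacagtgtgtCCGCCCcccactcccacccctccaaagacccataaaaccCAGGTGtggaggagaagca
Sftpb, chr6:72304360-72304609, plus strand: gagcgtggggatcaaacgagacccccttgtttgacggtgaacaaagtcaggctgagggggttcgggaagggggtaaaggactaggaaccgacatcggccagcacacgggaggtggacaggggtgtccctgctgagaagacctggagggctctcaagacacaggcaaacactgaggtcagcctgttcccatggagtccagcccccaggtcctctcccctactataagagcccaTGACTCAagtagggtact
CACCTG was found 1 time each upstream of Krt8 and Krt18 and 2 times upstream of Epcam, of which 1 reads CAGGTG. Among 32851 RefSeq promoters of the same length 17.2% held this motif on either strand. GGGCGG, present in 32.7% of promoters, was found upstream of Epcam as CCGCCC, and TGACTCA, present in 4.46%, upstream of Sftpb, 18 to 12 bases before the start. TATAAA, present in 12.4% of promoters, was in none of the 4 windows. The windows held 3 CG pairs for Krt8, 12 for Krt18, 8 for Epcam and 7 for Sftpb, against a median of 6 over all promoters. Such a match is a string of letters and not a measured binding site.

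Receptors set which signals a cell can receive. Of 54 receptor tyrosine kinases 25 (46.3%) were detected, a share near the 49.2% of all genes. Their median was 0.687 RPKM, and none reached 100 RPKM. Axl, a receptor for the phosphatidylserine-binding ligand Gas6, was the highest at 45.4, 43.5 and 43.9 RPKM. Next were the ephrin receptor Epha2 (28.4), the IGF receptor Igf1r (24.4), Erbb2 (20.3), the Wnt-binding Ryk (19.8) and Ephb3 (19.4). Erbb2, Ryk and Ephb3 overlapped as neighbours, and Axl did not overlap with Epha2.

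Within the EGF receptor family, Erbb2 and Erbb3 were at 20.3 ± 0.689 and 10.4 ± 0.122 RPKM. Egfr (chr11:16752203-16918158), the receptor of EGF, amphiregulin and HB-EGF, was at 0.0502, 0.0605 and 0.0212 RPKM, from 17, 23 and 6 reads. Erbb4 was at 0.00171 RPKM. The family was therefore detected as Erbb2 and Erbb3, neither of which is a receptor of EGF by itself. Among FGF receptors Fgfr3 was at 18.1 ± 0.457 RPKM and Fgfr2, which receives FGF signals from lung mesenchyme, at 4.68, 4.47 and 4.42 RPKM, while Fgfr1 gave 0, 2 and 0 reads. The collagen receptors Ddr2 (18.2) and Ddr1 (16.7), the hepatocyte growth factor receptor Met (5.76) and its relative Mst1r (6.68) were also detected. Among those at 0 were Insrr, Flt3, Epha3, Epha6, Epha8, Ntrk3 and Ror2.

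The receptors of TGF-beta and BMP were detected in 9 of 14 cases (64.3%), with a median of 2.50 RPKM. Tgfbr2, the chain that binds TGF-beta, was at 41.5, 43.0 and 41.6 RPKM, 6.26 ± 0.0656 times its signalling partner Tgfbr1, which was at 6.72 ± 0.195 RPKM. Among BMP receptors Bmpr1a was at 24.5 ± 0.407 RPKM, Bmpr2 at 7.94 ± 0.252 and Acvr1 at 6.02 ± 0.240, whereas Bmpr1b was at 0.00187. Of the Wnt, Notch and hedgehog receptors 15 of 22 (68.2%) were detected. The hedgehog transducer Smo was at 32.8 ± 0.404 RPKM, the frizzled receptors Fzd6 and Fzd2 at 23.2 and 17.8, their co-receptors Lrp6 and Lrp5 at 14.9 and 11.9, and Notch2 at 14.3. Notch2 exceeded Notch1 9.48 ± 0.193-fold, Notch3 was at 0.00331 RPKM, and Fzd10 was listed at 0.

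Cytokine and innate receptors were detected in 24 of 38 cases (63.2%), with a median of 2.42 RPKM. All 6 receptor chains for interferons were among them. These were Ifngr2 at 24.8 RPKM, Ifngr1 at 16.4, Ifnar1 at 15.9, Ifnar2 at 8.02, Il10rb at 5.10 and Ifnlr1 at 2.24, so that receptors for type I, II and III interferon each had both chains above 1 RPKM. In the TNF receptor family 7 of 8 were detected, led by the TWEAK receptor Tnfrsf12a at 84.7, 84.6 and 87.3 RPKM, and followed by Tnfrsf1a (49.7), the lymphotoxin receptor Ltbr (47.5) and Tnfrsf1b (34.6). The common chain of the IL-6 family, Il6st, was at 20.5 ± 0.353 RPKM. Its partners Il6ra (0.338), Osmr (0.235) and Lifr (0.0378) were each under 1 RPKM. Tlr3, which senses double-stranded RNA, was at 4.59, 5.54 and 4.49 RPKM, Tlr2 at 2.98 and Tlr4 at 2.59.

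Among the selected G protein-coupled receptors 16 of 36 (44.4%, against 49.2% of all genes) were detected. Beside Gprc5a these included the thrombin receptor F2r at 56.3 ± 1.18 RPKM, S1pr2 at 25.7 ± 0.646 and Ptger1 at 24.1 ± 0.467, of which 71.0% is overlapped by a gene on the opposite strand. The beta-adrenergic receptor Adrb1 was at 3.21 RPKM. Listed at 0 were P2ry1, Ptger2, Ptger3, Lpar3, S1pr3, Agtr2 and Ednra. Of the nuclear receptors 13 of 24 (54.2%, against 49.2% of all genes) were detected. Among them were Pparg at 21.4, 19.2 and 20.5 RPKM, Nr2f6 (22.6), Nr1h2 (19.4), Rxrb (19.0), Thra (16) and Rarb (13.8). The glucocorticoid receptor Nr3c1 was at 4.98, 5.68 and 5.26 RPKM, and the progesterone receptor Pgr and the retinoid receptor Rxrg were at 0.

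Surface proteins that have been linked to the binding and uptake of vesicles were detected in 21 of 30 cases (70.0%), with a median of 12.9 RPKM. All 6 tetraspanins were detected, with Cd63 at 177 ± 6.45 RPKM, Cd9 at 153 ± 4.01, Cd151 at 125 ± 5.54 and Tspan8 at 96.0 ± 2.11. The endocytic receptor Lrp2, also called megalin, was at 85.0, 84.2 and 89.2 RPKM, the fatty acid receptor Cd36 at 56.0 and the transferrin receptor Tfrc at 51.3. Syndecan-1 (Sdc1, chr12:8771323-8793715), the heparan sulfate proteoglycan that some of the study's donor mice lack, was at 69.1, 66.9 and 66.1 RPKM, and Sdc4 at 53.1, 53.5 and 53.6 RPKM. Sdc1 was the higher in each library, by 1.26 ± 0.0363-fold. Sdc2 was at 11.9 RPKM and Sdc3 at 0.323, and the glypicans Gpc2 and Gpc3 and the scavenger receptor Msr1 were listed at 0.

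Matrix genes divided by class. Of 44 collagen genes 13 (29.5%) were detected, with a median of 0.0481 RPKM, and 6 of the 9 basement membrane collagens stood beside 1 of the 11 fibrillar collagens. Collagen IV is the network collagen of basement membranes. Its chain Col4a5 (chrX:141475385-141689234) was at 138, 148 and 139.7 RPKM, Col4a6 was at 63.1, 63.4 and 64.4 RPKM, and Col4a1, the chain common to most tissues, was at 18.9, 18.9 and 19.4 RPKM. Col4a5 exceeded Col4a1 7.46 ± 0.333-fold, and Col4a2, the usual partner of Col4a1, was at 13.1 RPKM. All 6 collagen IV chains were above 1 RPKM, and none of the 3 other genes of the class was: Col18a1 was at 0.295, Col15a1 at 0.172 and Col7a1 at 0.0684.

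The fibrillar collagen detected was Col1a1 (chr11:94936224-94953042), at 78.9, 79.8 and 79.3 RPKM. Collagen I is usually built of alpha 1 and alpha 2 chains together. Col1a2 (chr6:4504814-4541544), the alpha 2 chain, was at 0.0545, 0.0364 and 0.0326 RPKM. The ratio of Col1a1 to Col1a2 was thus 1449, 2191 and 2434 in libraries 1, 2 and 3 (2024 ± 513). Col1a2 lay under 0.1 RPKM, where levels rest on few reads, so the size of this ratio is imprecise. Col3a1, the other main collagen of fibroblasts, was listed at 0, a limit of 0.00345 RPKM. No 50-base sequence of Col1a1 occurs in another annotated gene, and no gene overlaps it on the opposite strand. Other collagens detected included Col16a1 (6.68), Col6a1 (6.11), Col12a1 (6.08) and Col8a1 (4.18), and those at 0 were Col6a4, Col6a5, Col9a1, Col9a2, Col13a1 and Col25a1.

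Laminins are heterotrimers of the basement membrane, made of an alpha, a beta and a gamma chain. Of 11 chains 5 (45.5%, against 49.2% of all genes) were detected, with a median of 0.403 RPKM. Lama5 was the detected alpha chain at 64, 63.4 and 65.9 RPKM, Lamb2 led the beta chains at 77.9, 76.6 and 79.7 RPKM, and Lamc1 led the gamma chains at 64.5, 65.2 and 65.4 RPKM. Lama5 and Lamc1 overlapped in range, with a ratio of 0.991 ± 0.0184. Lamb2 exceeded Lamb1 18.1 ± 0.935-fold. Lama3 and Lamb3 were at 0.0267 and 0.403 RPKM. Lama1 was listed at 0.

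Integrins bind these matrix proteins as alpha and beta pairs. Of 25 chains 9 (36%, against 49.2% of all genes) were detected, with a median of 0.328 RPKM. The common beta chain Itgb1 was at 232, 227 and 225 RPKM, and Itga3, the alpha chain that binds laminin with it, was at 102, 102 and 103 RPKM. Itgb5 (78.7), Itgav (21.1) and Itgb3 (9.09) form the vitronectin-binding integrins. The fibronectin chain Itga5 was at 5.16 RPKM. Itga6, Itgb4 and Itgb8 were at 2.51, 1.63 and 1.01 RPKM, the last on both sides of 1 RPKM (0.913, 1.19 and 0.918), and Itgb6, which pairs with Itgav to activate TGF-beta in epithelium, was at 0.542. Itga8 and Itgax were listed at 0.

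**Figure D4:**
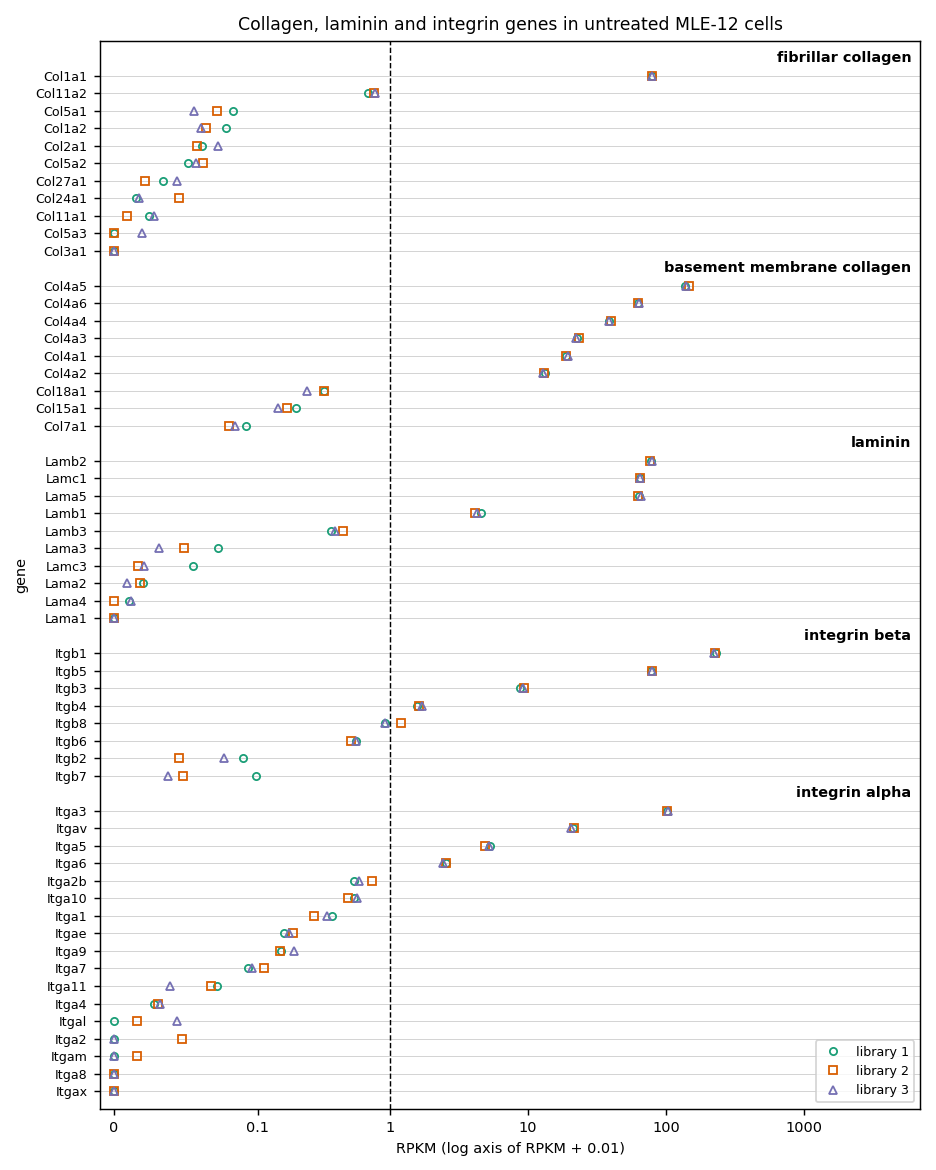
RPKM in each control library (log axis with 0.01 added) for fibrillar and basement membrane collagens and for the laminin and integrin chains reported here. The dashed line is 1 RPKM. Col1a1 lies alone to the right among the fibrillar collagens, whereas all 6 collagen IV chains lie right of the line.

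Of 35 matrix glycoproteins and proteoglycans 17 (48.6%, against 49.2% of all genes) were detected. Sparc, a collagen-binding glycoprotein, was at 369, 366 and 372 RPKM and headed the list above Dcn. Ltbp3, which binds latent TGF-beta, was at 74.8 ± 1.49 RPKM, the basement membrane proteoglycan perlecan (Hspg2) at 68.4 ± 1.5, thrombospondin 1 (Thbs1) at 38.3 ± 1.84 and Ecm1 at 26.0 ± 0.493. Periostin (Postn) and lumican (Lum), matrix proteins of fibroblasts, were listed at 0. Enzymes of the matrix and their inhibitors were detected in 27 of 37 cases (73.0%), with a median of 10.9 RPKM.

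P4hb, a subunit of prolyl hydroxylase and a general chaperone of disulfide bonds, was at 723, 696 and 693 RPKM, rank 55. The metalloproteinase inhibitor Timp2 was at 172, 177 and 174 RPKM. The lysyl oxidase family was detected as Loxl2 (87.8), Loxl4 (29.3) and Loxl3 (11.9), while Lox itself gave 1, 0 and 1 reads. Of the Loxl2 50-base sequences 45.0% occur in another annotated gene. The sheddases Adam9 (84.7) and Adam10 (58.9), transglutaminase Tgm2 (65.7) and the plasminogen activator Plat (53.3) were also among the highest. Mmp9 gave 0, 0 and 1 reads, and Mmp7, a metalloproteinase of lung epithelium, was listed at 0, a limit of 0.0317 RPKM.

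Genes of the cell cycle were nearly all detected. All 37 genes of S phase and all 39 of G2 and mitosis were detected, against 49.2% of all genes, with medians of 34.2 and 36.6 RPKM. The lowest of these 76 genes was at 8.97 RPKM. Pcna, the sliding clamp of DNA polymerase, was at 219.8, 218 and 219.9 RPKM, and Mcm5, a subunit of the replicative helicase, was at 115, 115 and 124 RPKM. Top2a, which untangles sister chromosomes, was at 136, 133 and 132 RPKM, Mki67, the proliferation antigen, at 98.8, 95.6 and 91.0 RPKM, and the anaphase activator Cdc20 at 101, 96.5 and 104 RPKM. The mitotic cyclins Ccna2 and Ccnb1 were at 83.0 and 78.7 RPKM.

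Among the 30 genes of G1 all but the inhibitor Cdkn1c (0.224) were detected, with a median of 14.5 RPKM. Cyclin D1 (Ccnd1) was at 142, 140.4 and 145 RPKM, 7.35 ± 0.134 times Ccnd2, and its kinase Cdk4 was at 111, 109.9 and 107 RPKM, 14.1 ± 0.339 times Cdk6. Cdkn2a (chr4:89274471-89294653), the locus of the inhibitors p16 and p19Arf, was at 48.1, 46.8 and 50.9 RPKM, and Cdkn2c was at 42.6 ± 1.14 RPKM. Inhibitors and cyclins of G1 were thus detected side by side. Of the proteins that large T antigen binds, Trp53 was at 36.7, 34.4 and 35.1 RPKM, the pocket protein Rbl1 at 15.4 ± 0.241, Rbl2 at 8.10 ± 0.0753 and Rb1 at 4.56, 5.04 and 4.63 RPKM. The values are transcript levels, and the protein states were not measured.

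The whole scale was headed by mitochondrially encoded genes and genes of general cell functions. Of the 20 highest, 10 were encoded by the mitochondrial genome, led by mt-Co1 at 5509, 5123 and 4993 RPKM, and 3 encoded ribosomal proteins (Rps12, Rplp1 and Rplp0). The other 7 were the elongation factor Eef1a1 (4978), the ferritins Fth1 (1842) and Ftl1 (1538), the chaperone Hspa8 (1453), the actins Actb (1392) and Actg1 (1367), and Tpt1 (1302). The 13 mitochondrial genes took 8.46 ± 0.216% of summed RPKM, and the 100 highest genes took 29.5 to 30.2%. For Eef1a1, Rplp0, Hspa8 and Actg1 between 33.1 and 40.4% of 50-base sequences occur in another annotated gene, for Ftl1 58.4%, and for mt-Co2, mt-Atp6 and mt-Co3 99.5 to 100%.

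The 3 libraries lay close together. Across genes of at least 1 RPKM, Pearson's r of log2(RPKM + 1) was 0.998 for each pair of libraries, a description over genes that are not independent. The median coefficient of variation was 2.52% for genes of at least 100 RPKM, 2.72% from 10 to 100, 4.36% from 1 to 10, and 17.0% from 0.1 to 1 RPKM. Among genes with at least 50 recovered reads in a pair of libraries, 16.6 to 19.6% differed beyond a cut-off for counting error. Some genes pass such a cut-off by counting error alone, so the excess is smaller than this share.

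Few genes of higher level varied. The largest spread on the log2(RPKM + 1) scale, among genes of at least 5 RPKM, was that of Ndrg1, a hypoxia-responsive gene, at 11, 4.83 and 9.07 RPKM. Bnip3, a mitophagy receptor also known to respond to hypoxia, was at 18.1, 9.80 and 15.3 RPKM. Both were lowest in library 2. Uqcc2, an assembly factor of respiratory complex III, was at 29.9, 35.3 and 20.8 RPKM, and Lsm5 was at 46.5, 30.7 and 32.4 RPKM, so the odd library differed from gene to gene. The 8 others were Teddm2, Ap3s1, mt-Atp8, Timm13, Dnajc15, Hint3, the ubiquitin-like Isg15 (8.27, 8.75 and 6.13 RPKM) and Cbr2 (6.63, 8.11 and 9.49 RPKM), a carbonyl reductase abundant in mouse lung.

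**Figure D5:**
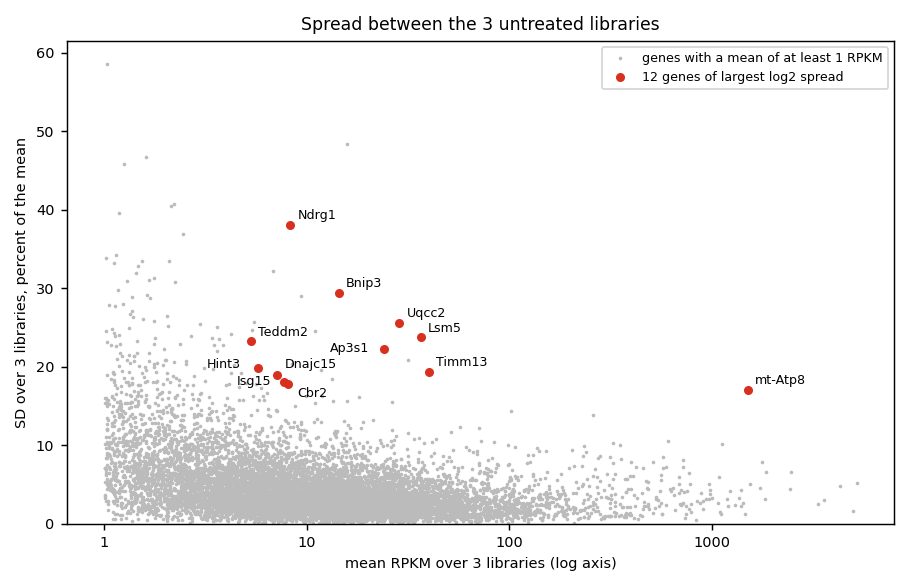
SD over the 3 control libraries as a percent of the mean (vertical axis) against mean RPKM (log axis) for the 10805 genes of at least 1 RPKM, with the 12 genes of largest log2 spread in red. The cloud narrows to the right, and Ndrg1 and Bnip3 are the highest of the named genes.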

How the data were processed

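RNA of 9 MLE-12 samples was sequenced, and the 3 control samples were used here. The authors deposited 1 table of RPKM with 9 value columns, per the file headers. The 3 columns headed by the line's name and a number hold the controls, a match made by elimination, and 0 value columns had no sample. TopHat2 (version 2.0.7) and the build GRCm38 are named in the submitters' processing notes. The read counter, its strand setting and the annotation release are not given in the sources used here, so sense and antisense reads may be mixed where genes overlap.

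RPKM were used as deposited. Identifiers were matched to GENCODE M21 (21748 of 21950 genes, 202 unmatched). Library totals and whole reads were recovered from the step between low RPKM values (tolerance 0.01 reads), for 14897 of 16845 genes above 0 (88.4%). The annotated exonic length held for 54.5% of the recovered genes, and another length was searched for the rest. In simulated data for the 3 control libraries 1847 of 1940 genes were recovered, all 1847 with exact reads. Recovered reads were 88.9 to 89.0% of library totals. The exonic 50-base sequences shared with another gene and the bases overlapped on the opposite strand were counted from the annotation. Promoters are those of RefSeq, given for 567 of the 771 listed symbols. The windows shown are entries on the chromosome of the gene itself, and any other entry of these symbols counts only among all promoters.

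The 38 gene lists hold 771 symbols, of which 767 matched and 4 did not. The marker genes and lists were chosen with earlier results of these data known. Named genes are the 4 markers, all genes of the alveolar, transitional and lineage lists, up to 6 highest members of each other list with those at 0, the 20 highest genes and the 12 most variable genes of at least 5 RPKM without predicted gene models. Others were named after their values were seen. Some members that this rule names are not reported here, though they are included in the counts and medians. Alternatives tried were other thresholds (0.5 and 2 RPKM, 1 RPKM in each library), rescaling to a sum of 1000000, protein-coding genes alone, ranks averaged over libraries, genes above 0 alone, and leaving out each library. Python 3.11.15, numpy 2.4.6, pandas 2.3.3 and matplotlib 3.10.9 were used.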

Additional observations from a re-analysis of the deposited data

How the results depend on the processing

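The count of detected genes was 10805 at 1 RPKM and lay between 9897 (at least 2 RPKM) and 11870 (rescaled to a sum of 1000000) over all alternatives. Of 266 recomputed list counts 254 stayed within 1.5 times their main value. The others were counts of 0 to 2 in lists of airway and blood cells. At a threshold of 0.5 RPKM the detected members were 1 ciliated, 2 basal, 2 macrophage, 1 endothelial and 2 erythroid genes, and at 2 RPKM 0 macrophage genes. Rescaled to a sum of 1000000 they were 2 ciliated, 2 basal, 2 neuroendocrine, tuft and ionocyte, 2 macrophage, 1 endothelial and 2 erythroid genes. List medians, divided by the median of all genes, moved beyond their spread in 3 of 152 recomputations. Leaving out 1 library in turn gave 0.336 to 0.382 for type 2 genes (main 0.384), 11.3 to 12.7 for transitional genes (main 11.5) and 0.0126 to 0.0335 for type I keratins (main 0.0267). The last was lowest without library 2 and rests on few reads. The top percent of the markers was larger among genes above 0 alone, at 26.1 for Sftpb, 0.315 for Krt19, 1.27 for Aqp5 and 0.778 for Krt8, against 0.241 for Krt19, 0.975 for Aqp5 and 0.597 for Krt8 over all genes and rank 4390 for Sftpb. Ranks averaged over libraries gave 0.609 for Krt8. Without 1 library the top percent was 0.232 to 0.241 for Krt19, 0.597 to 0.606 for Krt8 and 0.966 to 1.002 for Aqp5, whose highest value came without library 2. No paired analysis was possible because the samples form 1 group and no comparison between groups was made. Depth limits the lowest levels: genes under 0.1 RPKM rest on few reads. A gene listed at 0 may have up to the level stated beside it, or more if its counted length was shorter than annotated.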

Other observations

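Ion and water transport genes, by which the alveolar epithelium clears fluid, were detected in 9 of 15 cases (60.0%), with a median of 10.4 RPKM. Beside Aqp5 the detected genes included the sodium pump subunit Atp1b3 at 63.7 ± 1.29 RPKM and the chloride cotransporter Slc12a2 at 45.1 ± 0.408. Of the epithelial sodium channel, built of an alpha, a beta and a gamma subunit, Scnn1a was at 11.6, 11.5 and 11.2 RPKM. The beta subunit Scnn1b was listed at 0, a limit of 0.0129 RPKM, and the gamma subunit Scnn1g gave 1, 1 and 0 reads. The alpha subunit was thus the detected member of the 3. Cftr, the chloride channel of secretory epithelium, gave 1, 0 and 1 reads.

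Genes in common use as references for transcript levels were detected in 13 of 13 cases, from Eef1a1 down to Tbp at 4.73, 4.76 and 4.67 RPKM. Gapdh was at 1087 ± 64.5 RPKM, B2m, the light chain of MHC class I, at 562, 573 and 562 RPKM, and Hprt at 65.4, 66.2 and 66.4 RPKM.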
